A study of Mus musculus with 28 samples.

Results

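Long-term haematopoietic stem cells (LT-HSC) and MPP3, a multipotent progenitor population, were compared by bulk RNA sequencing in aged recipient mice that carried control marrow. The comparison took 7 of the 28 libraries of the series, chosen by their labels alone: 3 of LT-HSC and 4 of MPP3. All 7 held cells of Mx1-Cre marrow from young donors, re-isolated from bone marrow 4 months after transfer into aged CD45.1 recipients, with C57BL/6 given as the strain. Mx1-Cre is a recombinase transgene under an interferon-inducible promoter, so the control cells carry it too. CD45.1 is an allele of the leukocyte antigen Ptprc, used to tell cells of a host from those of a donor. The ages were given only as young or aged, and the sorting gates were not given. Each LT-HSC library named 2 recipients, as did MPP3 replicate 4, and MPP3 replicates 1, 2 and 3 named 1 each. Other groups served for comparison: 4 LT-HSC and 4 MPP3 libraries of control marrow in young recipients, 4 and 4 of Dnmt3a-mutant marrow in aged recipients, and 2 and 3 of mutant marrow in young recipients. The labels did not describe the mutant allele.

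LT-HSC divide rarely, engraft for life and sit at the top of the blood lineages, and they are usually sorted as cells with the surface protein Slamf1 (CD150) and without Cd48. MPP3 lie just below them, carry Cd48 and not Slamf1, and are known for output biased to granulocytes and monocytes. The step from one to the other is known for loss of stem cell transcription factors, entry into the cell cycle and low-level expression of lineage genes, called priming.

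Total counts ran from 5.59 to 6.11 M counts per LT-HSC library and from 7.60 to 9.05 M counts per MPP3 library. Between 12244 and 13707 genes had a count in LT-HSC and between 14642 and 15911 in MPP3, so both measures did not overlap between the cell types. The exact 2-sided permutation test over all 35 splits gave p = 0.0286 for each, the smallest it can give, or 0.0571 after Benjamini-Hochberg adjustment over 6 library measures. The part of depth in the results below was not tested. On the log2 scale, the 3 LT-HSC libraries correlated with each other across genes at 0.731 to 0.773 and the 4 MPP3 libraries at 0.883 to 0.929. Pairs of an LT-HSC and an MPP3 library correlated at 0.76 to 0.814, a range that overlapped that of pairs within LT-HSC and reached higher. Levels below are counts per M counts (CPM), always listed from replicate 1 to 3 for LT-HSC and from replicate 1 to 4 for MPP3. In bulk RNA, more cells of a type and more RNA per cell cannot be told apart.

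Of 16309 genes tested, 70 passed an adjusted p of 0.05 (0.429% of genes; edgeR quasi-likelihood test, Benjamini-Hochberg adjustment). In MPP3, 36 rose (0.221%) and 34 fell (0.208%). The 36 that rose included granulocyte genes (Ms4a3, Prtn3), early lymphoid genes (Igll1, Dntt) and the histamine enzyme gene Hdc. The 34 that fell included stem cell transcription factors (Gata2, Meis1) and the platelet gene Pf4. Levels did not overlap between the cell types for all 36 genes that rose and for 32 of the 34 that fell, against 14.4% of all tested genes. The 2 exceptions were Ptprs and Pura, singled out for this after their values were seen. The calls were made on the same levels, so this separation is no separate check on them. The median log2 change of all tested genes was 0.03, with 50.7% above 0, and 2320 genes (14.2%) had an unadjusted p below 0.05. In 15 of the genes that rose, no read was counted in any LT-HSC library. In 4 that fell, none was counted in any MPP3 library.

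The calls rested on few libraries. The count of 70 fell to 31 without MPP3 replicate 2, to 44 without replicate 3 and to 30 without replicate 4. Leaving out another library could also raise the count, and the full range is given with the processing settings below. When each of the 7 libraries was left out in turn, 20 genes kept their call every time, 12 higher and 8 lower, and all 20 also kept it with recipients as a block. These included Igll1, Hdc, Ms4a3, Lbp, Met, Dntt, Igha, St8sia4, Pik3cd, Chdh, Tifab and Atp1b1 among the higher and Pf4, Itsn1, Cavin2, St3gal1, Sgms1, Plxdc2 and Ptgs1 among the lower. The other 50 lost their call in at least 1 of these fits. All of these fits took the spread from the other groups of the series too. The labels name no sequencing pool, and 2 pools were inferred from the column names. Within the second inferred pool, 2 libraries of each cell type gave 57 calls, 49 higher and 8 lower. Within the first, 1 LT-HSC library against 2 of MPP3 gave 0 calls by edgeR, with 1101 genes at an unadjusted p below 0.05.

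The genes of the usual sorting proteins were on the side that the cell type labels call for. Slamf1 had 57.6, 30.6 and 29.3 CPM in LT-HSC and 0.111, 0, 6.80 and 2.30 CPM in MPP3. Cd48 had 0, 6.21 and 0 CPM in LT-HSC and 63.6, 77.9, 76.7 and 28.5 CPM in MPP3. Neither gene overlapped between the cell types, but neither passed the test, at a log2 difference of -4.09 (SE 1.56, adjusted p = 0.242, edgeR) and 4.88 (SE 1.95, adjusted p = 0.268). With limma voom both passed, Slamf1 at an adjusted p of 0.0328 and Cd48 at 0.00564. Fcgr3, an antibody receptor of myeloid cells, was listed at 0 in all 3 LT-HSC libraries and had 11.8, 26.1, 44.1 and 46.0 CPM in MPP3, with an adjusted p of 0.0622 by edgeR.

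Flt3, Kit and Cd34, other genes of the stem and progenitor gate, differed less. Flt3, the receptor that is higher in lymphoid-biased progenitors, had 70.6, 50.5 and 75.5 CPM in LT-HSC and 185, 126, 149 and 74.6 CPM in MPP3. Its ranges overlapped through MPP3 replicate 4, and it was not called (log2 1.03, SE 0.46, adjusted p = 0.317, edgeR). Kit, the stem cell factor receptor, was at a log2 difference of -0.69 (SE 0.31, adjusted p = 0.319, edgeR) and Cd34 at 1.15 (SE 0.56, adjusted p = 0.345). Ly6a, which encodes Sca-1, spread over 2.02 to 83.1 CPM in LT-HSC and 2.55 to 98.1 CPM in MPP3, so no direction can be given. Of 13 tested genes of the surface marker list, 0 were called in either direction by edgeR, and 7 had an unadjusted p below 0.05, 4 higher and 3 lower in MPP3. At that threshold, 8.06% of all tested genes were higher and 6.17% lower. Itga2b, the platelet integrin CD41, had 41.4, 148 and 31.7 CPM in LT-HSC and 11.6, 0.425, 12.1 and 3.10 CPM in MPP3, with no overlap and an adjusted p of 0.30 by edgeR.

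**Figure D1:**
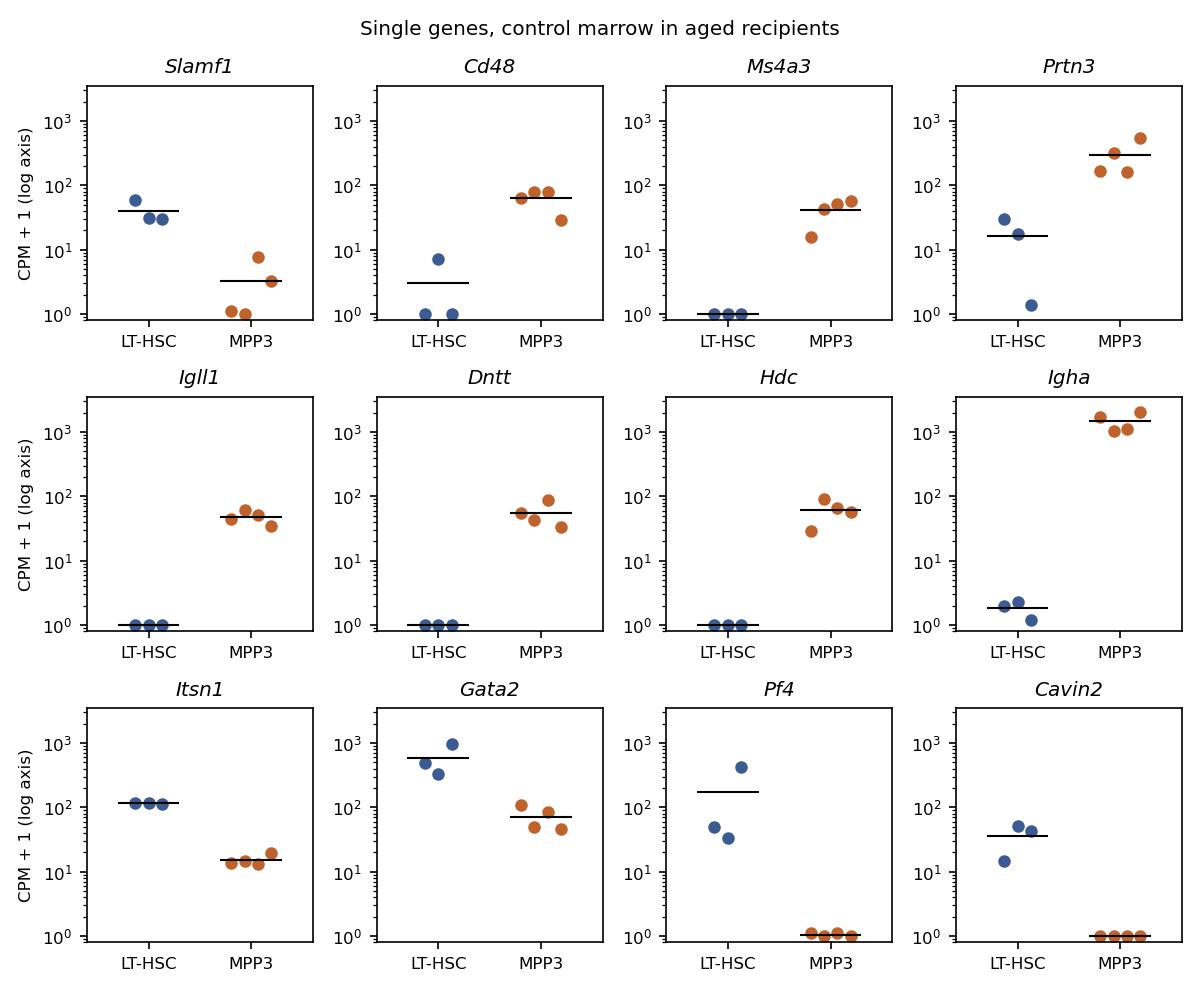
CPM + 1 on a log axis of 12 genes in the 3 LT-HSC (blue) and 4 MPP3 (orange) libraries of aged recipients with control marrow. Each point is a library and each line the group mean. The points of all 12 genes are apart between the cell types, and 10 of the genes were called, the exceptions being Slamf1 and Cd48.

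Granulocyte and monocyte genes were higher in MPP3. Of 42 tested members of this priming list, 6 rose (14.3%, against 0.221% of all tested genes) and 0 fell. Of the 42, 38 had a log2 difference above 0, against 50.7% of all tested genes, and the median was 3.71. Summed over the list, CPM were 1005, 2038 and 1357 in LT-HSC and 10993, 19174, 13191 and 26742 in MPP3. The sums did not overlap, and MPP3 replicates 2 and 4 were the highest. Mpo, the gene of the granule enzyme myeloperoxidase, was 67.1% to 75.3% of that sum in MPP3 and 5.32% to 13.4% in LT-HSC. It had 53.5, 226 and 182 CPM in LT-HSC and 7661, 13656, 8847 and 20139 CPM in MPP3. Mpo was not called (log2 6.35, SE 2.00, adjusted p = 0.171, edgeR).

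The 6 genes that rose were Ms4a3, Hp, Cst7, Slpi, Alas1 and Prtn3. Ms4a3, a membrane protein gene used to trace granulocyte and monocyte progenitors, had 0 CPM in all 3 LT-HSC libraries and 14.6, 41.5, 49.6 and 56.8 CPM in MPP3. It was at least 242-fold higher, taking 3 counts over the LT-HSC group as the floor (adjusted p = 0.0033, edgeR). Without LT-HSC replicate 1 or 2 this bound, like that of each gene at 0 in all LT-HSC libraries, was 1.52 and 1.55 times lower, since the floor then rests on fewer counts. Hp, which encodes the haemoglobin-binding protein haptoglobin, had 0 CPM in all LT-HSC libraries and 21.4, 67.5, 4.36 and 45.9 CPM in MPP3, or at least 216-fold more. The call of Hp (adjusted p = 0.011) was lost without LT-HSC replicate 2, at 0.051. Cst7, the gene of the cathepsin inhibitor cystatin F, had 0.165, 0 and 0 CPM in LT-HSC, which is 1 read, and 17.1, 28.6, 23.3 and 59.4 CPM in MPP3. Its pooled ratio was 588, with a 95% interval of 105 to 23254 that covers counting error only. Without LT-HSC replicate 1, which held the read, Cst7 was at least 129-fold higher, and without replicate 2 its ratio was 380. Cst7 lost its call (adjusted p = 0.014) without LT-HSC replicate 2 or 3, at 0.075 and 0.070.

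Alas1, the first enzyme of haem synthesis, had 0.165, 0.319 and 5.70 CPM in LT-HSC and 80.8, 91.2, 93.6 and 166 CPM in MPP3. The groups were apart (log2 5.72, SE 1.18, adjusted p = 0.019, edgeR), and the call was lost without LT-HSC replicate 1 or 2 or MPP3 replicate 4 (adjusted p 0.055 to 0.097). Slpi, a secreted inhibitor of neutrophil proteases, was at 0 CPM in all LT-HSC libraries and at 8.73, 8.49, 3.21 and 49.5 CPM in MPP3, with replicate 4 far above the rest. Its adjusted p of 0.019 became 0.083 with recipients as a block, and the call was lost without any 1 of the LT-HSC libraries or without MPP3 replicate 4 (adjusted p 0.061 to 0.077).

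Prtn3 and Elane encode serine proteases of the primary granules of neutrophils and lie near each other on chromosome 10. Prtn3 had 28.7, 16.9 and 0.368 CPM in LT-HSC and 166, 323, 161 and 548 CPM in MPP3. The groups were apart and Prtn3 was called (log2 4.29, SE 0.93, adjusted p = 0.027, edgeR), but not with recipients as a block (adjusted p = 0.13) or with limma voom (adjusted p = 0.162). Its call was also lost without LT-HSC replicate 2 or 3 or MPP3 replicate 2 or 4 (adjusted p 0.059 to 0.115). Elane had 168, 31.4 and 0.552 CPM in LT-HSC and 651, 1498, 970 and 1715 CPM in MPP3, without overlap, and did not pass the test (log2 4.18, SE 1.88, adjusted p = 0.324, edgeR). Ctsg, the gene of the related protease cathepsin G, did not overlap either, at 0 to 7.26 CPM against 143 to 502 CPM, and had an adjusted p of 0.133 by edgeR. Mpo, Elane and Ctsg were chosen after their values were seen.

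The promoters of Prtn3 and Elane are shown because both genes were higher in MPP3 libraries and because both windows hold the same 8 letters, GAGGAAGT, a core bound by PU.1 (Spi1), a transcription factor of myeloid cells. Each window is the 250 bases before the start in RefSeq (GRCm38.p6), on the plus strand, with the match in capitals.
Prtn3, chr10:79879417-79879666: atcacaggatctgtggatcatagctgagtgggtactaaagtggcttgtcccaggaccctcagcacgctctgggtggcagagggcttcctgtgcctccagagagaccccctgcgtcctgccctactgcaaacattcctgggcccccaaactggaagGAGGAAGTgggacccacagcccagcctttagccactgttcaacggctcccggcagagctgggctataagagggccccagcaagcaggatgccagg
Elane, chr10:79886062-79886311: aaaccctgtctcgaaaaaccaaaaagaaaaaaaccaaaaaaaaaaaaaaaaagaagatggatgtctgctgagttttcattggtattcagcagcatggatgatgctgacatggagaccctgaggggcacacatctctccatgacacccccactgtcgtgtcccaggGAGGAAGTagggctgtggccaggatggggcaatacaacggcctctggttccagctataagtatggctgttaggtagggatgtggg
The match lies at positions -95 to -88 before the start of Prtn3 and at -85 to -78 before that of Elane. Read on both strands, GAGGAAGT was in 6 of 41 promoters (14.6%) of the tested granulocyte and monocyte genes with a window, in 1 of 45 (2.22%) of the LT-HSC identity genes, against 2.65% of 14214 promoters of tested genes and 2.44% of all 32851. It was in 4 of 46 promoters of the genes that rose (8.7%) and in 3 of 33 of the genes that fell (9.09%). A C/EBP core, TTGCNNAA, was in 8 of the 41 (19.5%) and 6 of the 45 (13.3%), against 7.89% for tested genes and 9.56% of all. A GATA core, AGATAA, was in 1 of the 41 (2.44%) and 3 of the 45 (6.67%), against 6.39% for tested genes and 9.99% of all. Some genes have more than 1 window, and the 41 belong to 32 genes and the 45 to 38. A match is a description of letters and does not show binding.

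Early lymphoid genes were among those that rose. Of 35 tested members of the lymphoid list, 2 rose (5.71%, against 0.221% of all tested genes) and 0 fell. Of the 35, 28 had a log2 difference above 0, against 50.7% of all tested genes. The median of the list was 3.98 (3.97 with genes without LT-HSC reads set at their bound). Igll1, the lambda5 chain of the surrogate light chain of B cell precursors, had 0 CPM in all 3 LT-HSC libraries and 43.1, 60.6, 49.8 and 33.2 CPM in MPP3. Dntt, the terminal transferase that adds bases at antigen receptor joints, had 0 CPM in all LT-HSC libraries and 53.3, 42.0, 85.6 and 32.9 CPM in MPP3. Both were on in each MPP3 library and silent at this depth in each LT-HSC library, at least 275-fold and 306-fold higher (adjusted p = 0.0023 and 0.005, edgeR). The recombinase gene Rag1 had 0 CPM in LT-HSC and 1.77, 26.5, 23.1 and 4.8 CPM in MPP3 (adjusted p = 0.063, edgeR). Il7r, the receptor for interleukin 7, likewise had 0 CPM against 6.41, 32.0, 31.4 and 16.9 CPM (adjusted p = 0.072). The summed level of the list overlapped between the cell types, at 1280 to 2193 CPM in LT-HSC and 1631 to 2208 CPM in MPP3.

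Hdc, the enzyme that makes histamine, had 0 CPM in all 3 LT-HSC libraries and 28.5, 91.0, 64.0 and 56.0 CPM in MPP3. It was at least 355-fold higher (adjusted p = 0.0023, edgeR) and the only call among 9 tested genes of mast cells, basophils and eosinophils. That is 11.1% of the 9, against 0.221% of all tested genes called higher. Mcpt8, a basophil protease gene, had 0 CPM in LT-HSC and 5.64, 3.72, 0.257 and 5.003 CPM in MPP3 (adjusted p = 0.23). The summed level of the list was 2.94 to 17.5 CPM in LT-HSC and 75.8, 102, 104 and 81.1 CPM in MPP3. Of these MPP3 sums, Hdc alone was 28.5, 91.0, 64.0 and 56.0 CPM. MPP3 was higher without overlap in 2 of the 9 genes, Hdc being 1 of the 2, against 9.96% of all tested genes. The median log2 difference of the list was 3.4 as fitted and 0.76 with genes at their bound. The eosinophil genes Epx and Prg3 stayed below 1 CPM in all 7 libraries.

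One antibody transcript rose as well. Igha, the constant region of immunoglobulin A, had 0.99, 1.27 and 0.184 CPM in LT-HSC and 1725, 1027, 1126 and 2054 CPM in MPP3 (log2 10.77, SE 1.72, adjusted p = 0.005, edgeR). With limma voom Igha was not called (log2 10.95, adjusted p = 0.897). Jchain, which joins antibody units, had 0 to 0.33 CPM in LT-HSC and 225, 163, 122 and 139 CPM in MPP3 (adjusted p = 0.0529). Igkc, the kappa light chain, had 0 to 38.8 CPM against 2603, 693, 501 and 721 CPM, with MPP3 replicate 1 apart from the rest (adjusted p = 0.214). Of 24 tested plasma cell genes, 1 rose (Igha, 4.17% against 0.221% of all tested genes) and 0 fell. A log2 difference above 0 was found in 18, against 50.7% of all tested genes. The median of the list was 3.15, or 2.99 with genes at their bound. In 11 of the 24, MPP3 was higher without overlap, against 9.96% of all tested genes, and in 0 it was lower. At an unadjusted p below 0.05 by edgeR, 9 were higher, against 8.06% of all tested genes, and 0 lower. Summed CPM were 239 to 429 in LT-HSC and 2546 to 5453 in MPP3. Among defining markers, Tnfrsf17 was at 0 in all 7 libraries, and Sdc1 at 0 in LT-HSC and 0 to 5.97 CPM in MPP3. Tnfrsf17 and Sdc1 were chosen after their values were seen. Mzb1 was at 0 in LT-HSC and 1.2 to 6.67 CPM in MPP3. The part of plasma cells or their RNA in the Igha result was not tested. With plasma cell, immunoglobulin and mature neutrophil genes taken out of the table, 76 genes were called, among them 69 of the 70. Igha was itself taken out, and RNA of such cells in other genes stayed in the counts, so this fit does not test their part.

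Other genes that rose belonged to no list. Lbp, a binding protein for bacterial lipopolysaccharide, had 0.99, 0.956 and 0.184 CPM in LT-HSC and 34.1, 62.3, 49.6 and 67.2 CPM in MPP3 (log2 6.18, SE 1.002, adjusted p = 0.0033, edgeR). Met, the receptor for hepatocyte growth factor, had 0 CPM in all LT-HSC libraries and 19.1, 52.7, 63.9 and 79.3 CPM in MPP3, or at least 320-fold more (adjusted p = 0.005). Pik3cd, the leukocyte phosphoinositide kinase subunit p110 delta, had 3.80, 7.48 and 13.2 CPM in LT-HSC and 49.97, 106, 80.6 and 81.3 CPM in MPP3 (log2 3.28, SE 0.58, adjusted p = 0.005). Pik3cd was not called with limma voom (adjusted p = 0.0694) or by edgeR with only the 7 libraries compared (adjusted p = 0.0652). These 3 signalling genes were apart between the cell types in every library.

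St8sia4, a polysialic acid transferase, had 5.45, 3.34 and 9.39 CPM in LT-HSC and 45.4, 121, 70.0 and 70.1 CPM in MPP3 (log2 3.66, SE 0.63, adjusted p = 0.005, edgeR). Chdh, which oxidises choline to betaine, had 0, 3.504 and 1.84 CPM in LT-HSC and 101, 150, 149 and 198 CPM in MPP3 (log2 6.37, SE 1.16, adjusted p = 0.0084). Tifab, an adaptor related to the TRAF6 partner TIFA, was at 0 in LT-HSC and had 32.5, 85.1, 21.7 and 99.3 CPM in MPP3, at least 369-fold more (adjusted p = 0.01). Atp1b1, a sodium pump subunit, was at 0 in LT-HSC and had 9.18, 16.4, 12.3 and 22.9 CPM in MPP3, at least 91.8-fold more (adjusted p = 0.01). All 4 were lowest or at 0 in the LT-HSC libraries and none of them overlapped.

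Stem cell genes were lower in MPP3. Of 50 tested LT-HSC identity genes, 6 fell (12%, against 0.208% of all tested genes) and 0 rose. Gata2, Egr1, Neo1, Meis1 and Cyp26b1 were among the 6. Only 2 of the 50 had a log2 difference above 0, against 50.7% of all tested genes. The median of the list was -2.45, and summed CPM were 8238, 8534 and 8958 in LT-HSC and 2816, 1932, 2225 and 1425 in MPP3. The sums were close among LT-HSC libraries and did not overlap with MPP3. Meis1, a transcription factor that binds DNA with Hox proteins, had 763, 264 and 1379 CPM in LT-HSC and 174, 95.03, 149 and 57.0 CPM in MPP3 (log2 -2.75, SE 0.64, adjusted p = 0.043, edgeR). The groups did not overlap. Meis1 kept its call only without LT-HSC replicate 2 among the fits with 1 library left out, and had an adjusted p of 0.069 with recipients as a block. Of 23 tested Hox genes and cofactors, 2 fell (8.7%, against 0.208% of all tested genes), Meis1 being 1 of the 2. The median of that list was -0.65.

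Gata2, a zinc finger factor needed for stem cell maintenance, had 496, 328 and 955 CPM in LT-HSC and 106, 48.4, 84.0 and 45.5 CPM in MPP3 (log2 -3.06, SE 0.62, adjusted p = 0.017, edgeR). The groups were apart, and the call was lost without LT-HSC replicate 3 or MPP3 replicate 2 or 4 (adjusted p 0.077 to 0.093). Neo1, the netrin receptor neogenin, had 102, 1.43 and 7.36 CPM in LT-HSC and 0 CPM in all 4 MPP3 libraries, at least 455-fold less over the MPP3 group, with LT-HSC replicate 1 well above the others (adjusted p = 0.027). The bound was 50.6-fold without LT-HSC replicate 1 and 694-fold without replicate 2. Its call was lost without LT-HSC replicate 1 or without any 1 of the MPP3 libraries (adjusted p 0.081 to 0.104). Cyp26b1, which breaks down retinoic acid, had 18.8, 2.71 and 86.3 CPM in LT-HSC and 3 reads in all of MPP3, in replicate 4. The ratio was 408-fold, with a counting interval of 139 to 1984, and was 128-fold without LT-HSC replicate 3 and 613-fold without replicate 2. The adjusted p of 0.041 became 0.105 with recipients as a block. Cyp26b1 lost its call without LT-HSC replicate 3 or any 1 of the MPP3 libraries (adjusted p 0.086 to 0.133).

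Platelet and megakaryocyte genes leaned the same way. Pf4, the platelet chemokine CXCL4, had 48.5, 32.3 and 429 CPM in LT-HSC and 0.111, 0, 0.128 and 0 CPM in MPP3, which is 2 reads in all. LT-HSC replicate 3 held the most and no library overlapped. The pooled ratio was 2882-fold, with a counting interval of 797 to 23812 (adjusted p = 0.0033, edgeR). Without LT-HSC replicate 3 the ratio was 730-fold, and without MPP3 replicate 1 or 3, which held 1 read each, it was 4326-fold and 4525-fold. Pf4 was the 1 call among 39 tested megakaryocyte and erythroid genes (2.56%, against 0.208% of all tested genes called lower). Of the 39, 9 had a log2 difference above 0, against 50.7% of all tested genes, and the median was -1.03. Vwf, the von Willebrand factor gene that marks platelet-biased stem cells, had 152, 92.05 and 188 CPM against 30.7, 35.8, 56.8 and 45.9 CPM (adjusted p = 0.075). Itgb3, the beta chain of the platelet integrin, had 60.6, 52.2 and 54.5 CPM against 0.553, 1.38, 0.257 and 6.30 CPM (adjusted p = 0.074). Vwf and Itgb3 did not overlap between the cell types and did not pass the test.

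The promoter of Pf4 is shown because Pf4 was the 1 called gene of this list and its window holds matches to 2 of the 3 motifs searched. The window is the 250 bases before the RefSeq start (GRCm38.p6, plus strand), with matches to the C/EBP core and, at the end, to the reverse complement of GAGGAAGT in capitals.
Pf4, chr5:90772185-90772434: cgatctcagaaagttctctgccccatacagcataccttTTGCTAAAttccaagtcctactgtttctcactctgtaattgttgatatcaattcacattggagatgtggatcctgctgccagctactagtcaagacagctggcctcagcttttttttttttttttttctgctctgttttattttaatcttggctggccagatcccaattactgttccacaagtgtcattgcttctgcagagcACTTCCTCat
The first match lies at -212 to -205 and the second at -10 to -3 before the start.

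A further list holds genes known to be raised in stem cells of aged mice. Of its 36 tested members, 3 fell (Cavin2, Egr1 and Neo1) and 0 rose, which is 8.33% called, against 0.208% of all tested genes called lower. The median log2 difference of the list was -2.14, with sums of 3101 to 4083 CPM in LT-HSC and 987 to 1410 CPM in MPP3. Cavin2, a coat protein of caveolae, had 13.7, 50.2 and 41.4 CPM in LT-HSC and 0 CPM in all 4 MPP3 libraries, at least 424-fold less (adjusted p = 0.005, edgeR). Mmrn1, the platelet protein multimerin, had 352, 336 and 121 CPM against 4.31, 6.05, 40.5 and 4.00 CPM, without overlap (adjusted p = 0.062). Some genes sit in several lists, and the members are not independent.

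**Figure D2:**
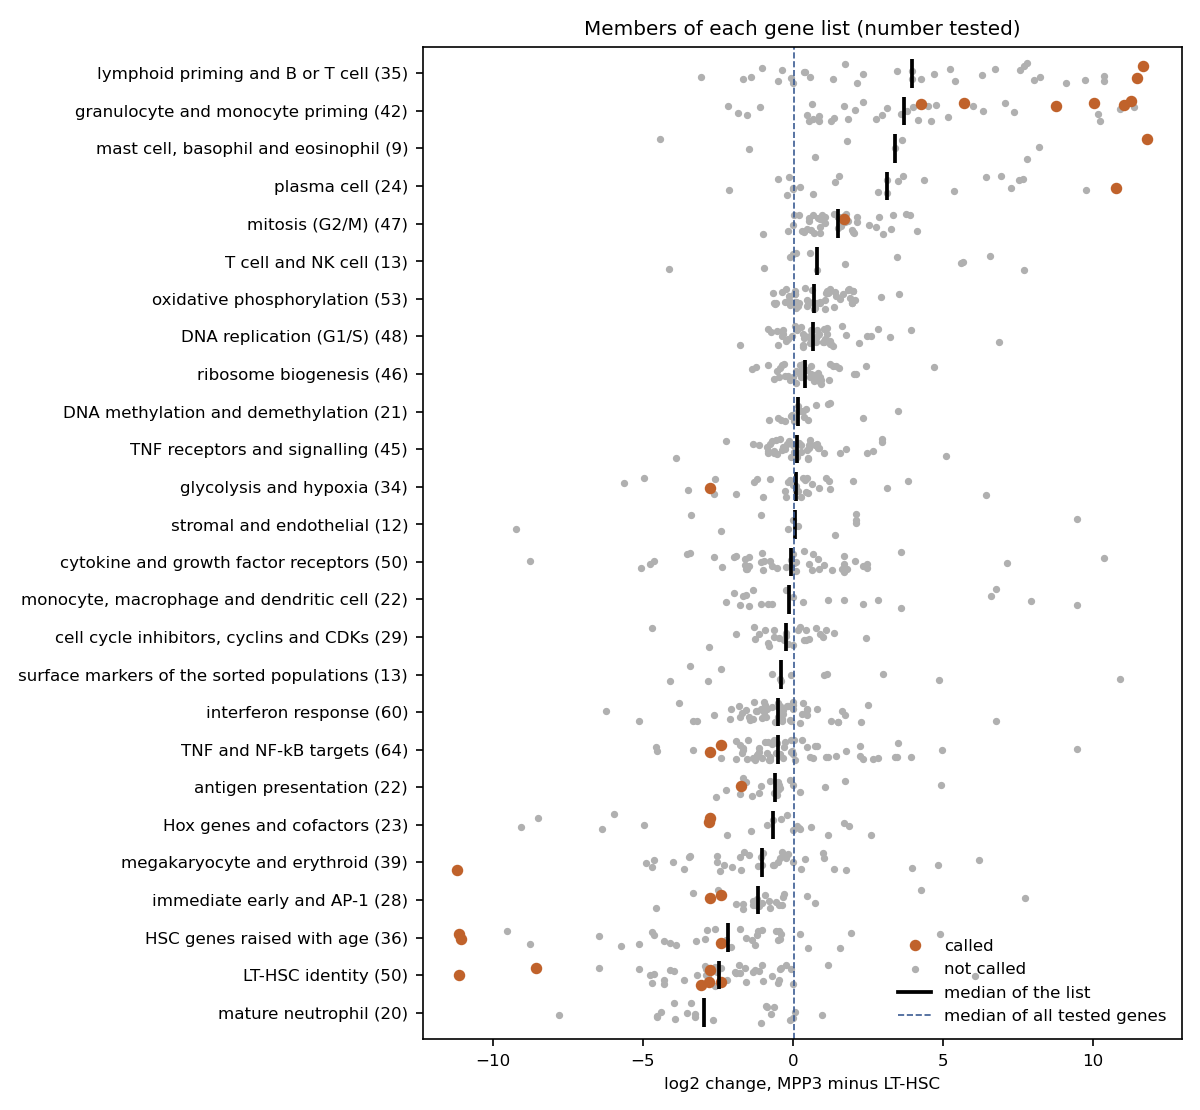
log2 change (MPP3 minus LT-HSC, horizontal) of the tested members of each gene list, with called members in orange, the list's median as a black line and the median of all tested genes (0.03) as a dashed line. Orange points lie to the right in the lymphoid and granulocyte and monocyte lists and to the left in the LT-HSC identity list, whose median was -2.45.

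Further genes that fell have roles in trafficking, lipids and glycans. Itsn1, an endocytic scaffold, had 115, 117 and 111 CPM in LT-HSC and 12.9, 13.8, 12.2 and 18.6 CPM in MPP3, with little spread in either group (log2 -2.99, SE 0.48, adjusted p = 0.0033, edgeR). St3gal1, a sialic acid transferase, had 354, 492 and 551 CPM against 106, 71.4, 99.8 and 97.8 CPM (log2 -2.31, SE 0.41, adjusted p = 0.005). Sgms1, a sphingomyelin synthase, had 257, 216 and 264 CPM against 34.6, 50.5, 43.5 and 24.2 CPM (log2 -2.68, SE 0.50, adjusted p = 0.0092). All 3 genes were apart between the cell types. Plxdc2, a transmembrane protein gene, had 27.2, 12.6 and 26.1 CPM in LT-HSC and 0 CPM in all MPP3 libraries, at least 262-fold less (adjusted p = 0.011).

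Ptgs1 and Tbxas1, enzymes on the path from arachidonic acid to thromboxane, fell, the pair being singled out after their values were seen. Ptgs1, cyclooxygenase 1, had 165, 173 and 250 CPM in LT-HSC and 27.5, 34.8, 5.90 and 45.8 CPM in MPP3 (log2 -2.78, SE 0.54, adjusted p = 0.011, edgeR). Tbxas1, thromboxane synthase, had 193, 296 and 217 CPM against 19.0, 30.5, 26.7 and 21.7 CPM (log2 -3.27, SE 0.72, adjusted p = 0.030). Neither gene overlapped. Tbxas1 lost its call without any 1 of the libraries other than LT-HSC replicate 1 (adjusted p 0.059 to 0.116).

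H2-Q7, a class I molecule of the Qa-2 type, had 1272, 868 and 1448 CPM against 404, 285, 518 and 256 CPM (log2 -1.71, SE 0.33, adjusted p = 0.011, edgeR) and lost its call without LT-HSC replicate 3 or MPP3 replicate 2 or 4 (adjusted p 0.051 to 0.059). Its near-identical neighbour H2-Q6 had 191, 154 and 203 CPM against 78.7, 55.4, 121 and 77.9 CPM (adjusted p = 0.16), and reads can be split between such copies, so the level of each is uncertain. Of 22 antigen presentation genes H2-Q7 was the only 1 called (4.55%, against 0.208% of all tested genes called lower). The median of the 22 was -0.58. Soga1 had 482, 117 and 109 CPM against 16.1, 16.9, 6.16 and 29.0 CPM (log2 -3.79, SE 0.78, adjusted p = 0.019), and its call was lost without LT-HSC replicate 1 or MPP3 replicate 1, 2 or 3 (adjusted p 0.067 to 0.11). Neither H2-Q7 nor Soga1 overlapped between the cell types.

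Among genes of cell division, 1 rose. Of 47 tested mitosis (G2/M) genes, 45 had a log2 difference above 0, against 50.7% of all tested genes, and the median was 1.52. Of the 47, 24 did not overlap in this direction, against 9.96% of all tested genes. Only 1 was called (2.13%, against 0.221% of all tested genes called higher). The summed CPM of the list were 2891, 3253 and 4405 in LT-HSC and 6288, 8675, 7919 and 7447 in MPP3, so all MPP3 libraries were above all LT-HSC libraries. Top2a, the topoisomerase of dividing cells, had 269, 230 and 349 CPM in LT-HSC and 827, 1156, 933 and 805 CPM in MPP3 (log2 1.72, SE 0.38, adjusted p = 0.029, edgeR). The groups were apart, and the call stood without MPP3 replicate 1 but not without any 1 of the other 6 libraries (adjusted p 0.059 to 0.12). Hmmr, a spindle protein gene, had 42.6, 53.7 and 34.4 CPM against 119, 158, 157 and 189 CPM (adjusted p = 0.051). The mitotic transcription factor gene Foxm1 had 23.3, 15.3 and 2.39 CPM against 59.3, 133, 154 and 101 CPM (adjusted p = 0.053), and the spindle gene Tacc3 had 4.79, 7.17 and 0 CPM against 51.9, 59.9, 40.5 and 86.8 CPM (adjusted p = 0.066). The DNA replication list (G1/S) had a median of 0.69 over 48 genes, with 0 called in either direction by edgeR and 8 at an unadjusted p below 0.05, 7 higher and 1 lower. Among 29 cyclin, kinase and inhibitor genes the median was -0.21 and edgeR called 0, and 7 reached an unadjusted p below 0.05, 3 higher and 4 lower. At that threshold, 8.06% of all tested genes were higher and 6.17% lower. The kinase gene Cdk6 had 394, 350 and 376 CPM in LT-HSC and 753, 736, 558 and 746 CPM in MPP3 (adjusted p = 0.17), and the growth regulator Mycn had 89.3, 210 and 31.5 CPM against 8.29, 1.91, 5.77 and 0.90 CPM (adjusted p = 0.051).

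None of the energy and ribosome genes of the lists was called as higher. In simulated data the test called 0 of 50 genes changed by 1 on the log2 scale, so changes of this size can be missed. Over all tested genes, 50.7% had a log2 difference above 0. At an unadjusted p below 0.05 by edgeR, 8.06% were higher and 6.17% lower. Of 53 oxidative phosphorylation genes, 0 were called by edgeR, 43 had a log2 difference above 0 and 11 were higher at an unadjusted p below 0.05, with a median of 0.72. Of 46 ribosome biogenesis genes, 0 were called, 34 had a difference above 0 and 8 were higher at an unadjusted p below 0.05, with a median of 0.42. MPP3 was higher without overlap in 15 of the 53 and 11 of the 46, against 9.96% of all tested genes, and lower in 0. Atp5a1, a subunit of the ATP synthase, had 161, 120 and 184 CPM in LT-HSC and 399, 294, 235 and 366 CPM in MPP3 (log2 1.06, SE 0.32, adjusted p = 0.14, edgeR). The nucleolar gene Npm1 had 660, 657 and 960 CPM against 1895, 1353, 1129 and 1474 CPM (log2 0.95, SE 0.31, adjusted p = 0.17). Neither gene overlapped. Over the glycolysis and hypoxia list the median was 0.11, and its 1 call of 34 tested genes was Meis1, the stem cell factor given above. In that list the glycolytic enzyme gene Pgam1 had 24.6, 42.4 and 5.34 CPM against 237, 193, 97.8 and 331 CPM (adjusted p = 0.062), while the glucose transporter Slc2a3 had 300, 179 and 275 CPM against 104, 74.2, 158 and 72.1 CPM (adjusted p = 0.13).

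**Figure D3:**
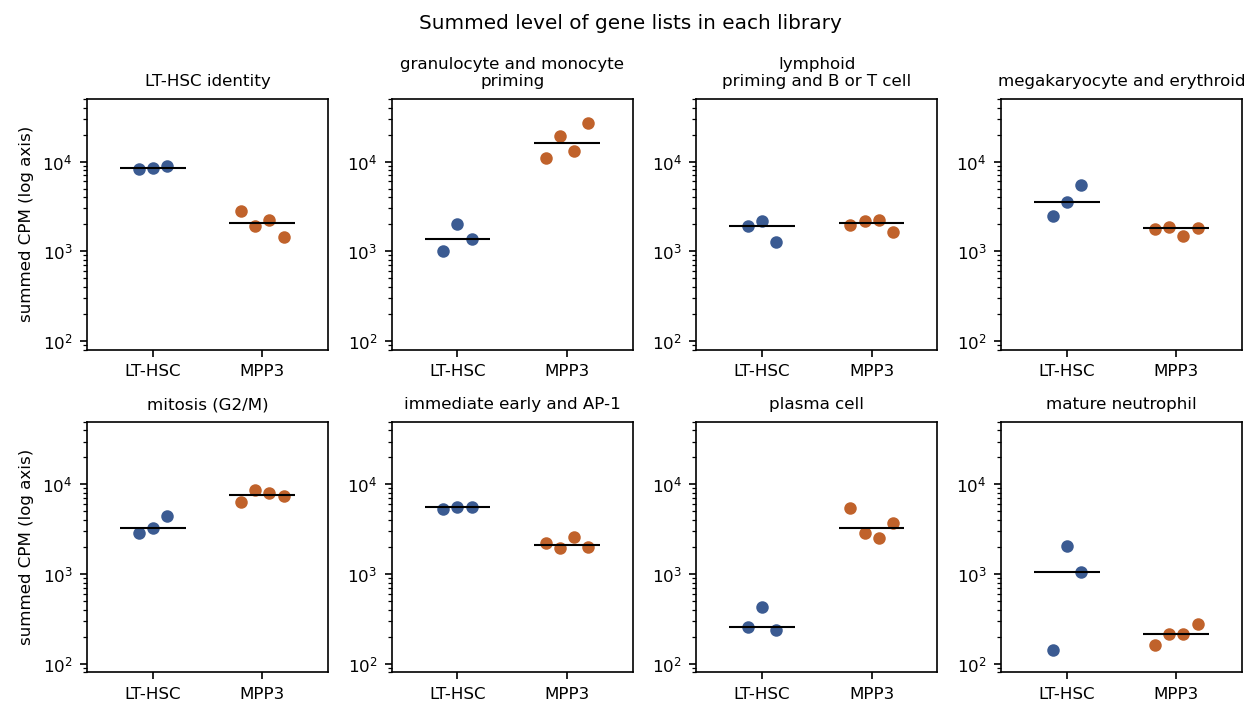
Summed CPM of 8 gene lists (log axis) in each LT-HSC (blue) and MPP3 (orange) library, with the group median as a line. The sums do not overlap for LT-HSC identity, granulocyte and monocyte priming, megakaryocyte and erythroid, mitosis, immediate early and plasma cell genes, while the lymphoid and mature neutrophil sums overlap.

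Immediate early genes were among those that fell. These genes are switched on within minutes by many stimuli, cell handling included. Of 28 tested, 2 fell (Egr1 and Nr4a1) and 0 rose, which is 7.14% called, against 0.208% of all tested genes called lower. Of the 28, 4 had a log2 difference above 0, against 50.7% of all tested genes. The median of the list was -1.15, with sums of 5252 to 5620 CPM in LT-HSC and 1955 to 2568 CPM in MPP3. Egr1 had 906, 1411 and 897 CPM in LT-HSC and 253, 156, 326 and 79.4 CPM in MPP3 (log2 -2.40, SE 0.50, adjusted p = 0.02, edgeR). Nr4a1, an orphan nuclear receptor, had 296, 471 and 425 CPM against 53.0, 49.5, 98.8 and 34.9 CPM (log2 -2.75, SE 0.64, adjusted p = 0.048). Neither overlapped. Egr1 lost its call without LT-HSC replicate 2 or MPP3 replicate 2 or 4 (adjusted p 0.076 to 0.088). Nr4a1 kept it only without LT-HSC replicate 1 and had an adjusted p of 0.092 with recipients as a block. Its relative Nr4a2 had 366, 179 and 309 CPM against 21.1, 26.8, 40.9 and 24.2 CPM (adjusted p = 0.13), and Klf6 had 332, 406 and 304 CPM against 139, 164, 130 and 201 CPM (adjusted p = 0.051). The part of cell handling in these values was not tested.

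The series title names TNF receptors, so their genes were read in both cell types. Tnf had 0.33, 1.11 and 0 CPM in LT-HSC and 28.5, 6.26, 14.9 and 20.01 CPM in MPP3, without overlap, and was not called (log2 5.12, SE 2.18, adjusted p = 0.296, edgeR). The receptor gene Tnfrsf1a had 7.59, 10.03 and 147 CPM against 41.3, 30.9, 16.7 and 40.9 CPM, and Tnfrsf1b had 5.45, 53.5 and 17.1 CPM against 20.1, 24.3, 71.3 and 30.1 CPM. Both receptors overlapped, with adjusted p-values of 0.718 and 0.803, and their sign turned with 1 library left out: Tnfrsf1a went to 1.88 on the log2 scale without LT-HSC replicate 3, and Tnfrsf1b to -0.0541 without MPP3 replicate 3. Of 45 tested TNF receptor and signalling genes, 0 were called by edgeR and 4 were higher at an unadjusted p below 0.05, against 8.06% of all tested genes. The median log2 difference of the 45 was 0.16. Nfkb1, an NF-kB subunit, had 20.3, 33.3 and 15.1 CPM in LT-HSC and 82.0, 110, 63.0 and 60.7 CPM in MPP3 (adjusted p = 0.12), and Rnf31, the ubiquitin ligase of the same pathway, had 4.29, 1.11 and 5.70 CPM against 49.4, 10.7, 32.2 and 24.01 CPM (adjusted p = 0.15). Of 64 TNF and NF-kB target genes, 2 fell (3.12%, against 0.208% of all tested genes) and 0 rose. The median of the 64 was -0.50, or -0.54 with genes at their bound. The 2 that fell were Egr1 and Nr4a1, counted above among the immediate early genes.

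Among interferon response genes, 0 of 60 were called by edgeR in either direction, with a median of -0.48. An unadjusted p below 0.05 was found in 13, 3 higher and 10 lower, against 8.06% and 6.17% of all tested genes. Ifih1, a sensor of viral RNA, had 74.6, 160 and 177 CPM in LT-HSC and 21.2, 45.7, 5.39 and 16.7 CPM in MPP3 (adjusted p = 0.11), and Bst2, the virus tether tetherin, went the other way at 0 to 0.159 CPM against 5.10 to 11.8 CPM (adjusted p = 0.066). Dnmt3a had 117, 92.2 and 44.4 CPM in LT-HSC and 120, 92.8, 112 and 112 CPM in MPP3 (log2 0.37, SE 0.46, adjusted p = 0.755, edgeR). Of 21 DNA methylation genes, edgeR called 0, and 2 reached an unadjusted p below 0.05, both higher, against 8.06% of all tested genes. Among 50 cytokine and growth factor receptors, edgeR called 0. An unadjusted p below 0.05 was reached by 16, 7 higher and 9 lower, against 8.06% and 6.17% of all tested genes. Tgfbr3, a co-receptor of transforming growth factor beta, had 271, 109 and 244 CPM in LT-HSC and 30.6, 25.1, 8.59 and 8.20 CPM in MPP3 (adjusted p = 0.11).

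Markers of other mature cells were read beside these results. Over 20 tested mature neutrophil genes, 0 were called by edgeR. At an unadjusted p below 0.05 by edgeR, 2 were lower in MPP3, against 6.17% of all tested genes. Summed CPM were 141, 2061 and 1045 in LT-HSC and 163 to 277 in MPP3. LT-HSC replicates 2 and 3 were thus apart from replicate 1. S100a8, an abundant neutrophil transcript, had 4.95, 183 and 185 CPM in LT-HSC and 0.553, 17.9, 1.03 and 23.4 CPM in MPP3 (adjusted p = 0.40), and Retnlg had 8.91, 93.5 and 29.4 CPM against 0.442, 0.849, 1.15 and 5.90 CPM (adjusted p = 0.36). In those same LT-HSC libraries the called genes Ms4a3, Hp, Slpi and Hdc had 0 reads. Their calls rest on these zeros, which are therefore no separate check on neutrophil RNA. The called granule gene Prtn3 had 16.9 CPM in LT-HSC replicate 2 and 0.368 CPM in replicate 3. Mpo and Elane, given above, had reads in both. The part of neutrophil RNA in the results was not tested. The fit without these genes, given above, cannot test it, since neutrophil RNA of other genes stays in the counts. T cell and NK cell genes summed to 20.5 to 115 CPM in LT-HSC and 28.5 to 47.7 CPM in MPP3, stromal and endothelial genes to 155 to 233 and 143 to 246 CPM, and monocyte, macrophage and dendritic cell genes to 475 to 1085 and 401 to 571 CPM. These 3 sums overlapped, and edgeR called 0 of their 13, 12 and 22 tested genes. An unadjusted p below 0.05 was reached by 1, 2 and 6 of them, against 14.2% of all tested genes.

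The same contrast was read in the other recipients and marrow, which share no library with it. It gave 147 calls (0.901%) for control marrow in young recipients, 331 (2.03%) for mutant marrow in aged recipients and 46 (0.282%) for mutant marrow in young recipients. Of the 70 genes, 39 were called in the same direction in young control recipients, which is 55.7% of the 70 and 26.5% of the 147. With aged mutant libraries 37 were shared (52.9% and 11.2%), and with young mutant libraries 19 (27.1% and 41.3%). None was called in the opposite direction. The sign was the same for 68, 62 and 66 of the 70. The 70 were chosen by their calls in the aged control libraries, so a smaller change elsewhere is not read as a difference.

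The test of the difference itself found 0 genes (0%) by edgeR between aged and young control recipients, with 1479 at an unadjusted p below 0.05 and a smallest adjusted p of 0.471. Pik3cd was among the genes with the smallest p: in young control recipients it had 64.5, 52.9, 50.1 and 79.3 CPM in LT-HSC and 46.3, 65.0, 60.0 and 74.0 CPM in MPP3, a log2 difference of -0.01 against 3.28 in aged recipients. Its difference between ages did not pass the test (adjusted p = 0.471).

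**Figure D4:**
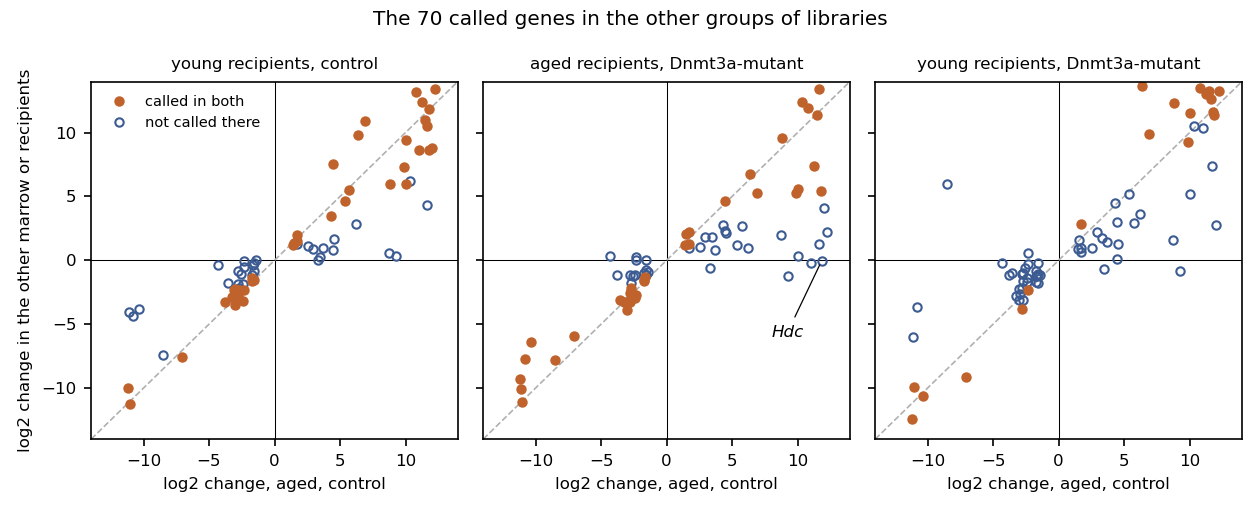
log2 change (MPP3 minus LT-HSC) of the 70 called genes in aged control libraries (horizontal) against the same change in young control, aged mutant and young mutant libraries (vertical), with genes called in both filled and equal changes on the dashed line. Signs are the same for 68, 62 and 66 genes, and Hdc lies near 0 in aged mutant libraries.

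Between control and mutant marrow in aged recipients, 1 gene (0.00613%) differed in its change, Hdc, with 1777 genes at an unadjusted p below 0.05. In aged recipients of mutant marrow Hdc had 7.57, 8.61, 36.9 and 126 CPM in LT-HSC and 14.6, 16.0, 46.1 and 94.5 CPM in MPP3. These ranges overlapped, and the log2 change was -0.06 there, against a rise from 0 in control marrow (interaction adjusted p = 0.0255, edgeR). The interaction was lost without any 1 of the control LT-HSC libraries, without control MPP3 replicate 2, 3 or 4, or without mutant MPP3 replicate 1 or 2 (adjusted p 0.054 to 0.128), and within either sequencing pool (0.805 and 0.706). The mutant LT-HSC libraries also had transcripts of mature cells. Their plasma cell sums were 13504, 189, 479 and 17635 CPM, so replicates 1 and 4 stood apart. Their mature neutrophil sums were 372, 182, 2687 and 18999 CPM, highest in replicates 3 and 4. Hp had 9.35, 0.253, 24.5 and 159 CPM and Slpi 34.4, 0.127, 1.70 and 51.5 CPM, where LT-HSC of control marrow in aged recipients had none. Without mutant LT-HSC replicates 1 and 4 the Hdc interaction had an adjusted p of 0.034, and 172 genes were called between control MPP3 and LT-HSC, an alternative chosen after seeing the data. The part of these transcripts in the Hdc difference was not tested further.

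**Figure D5:**
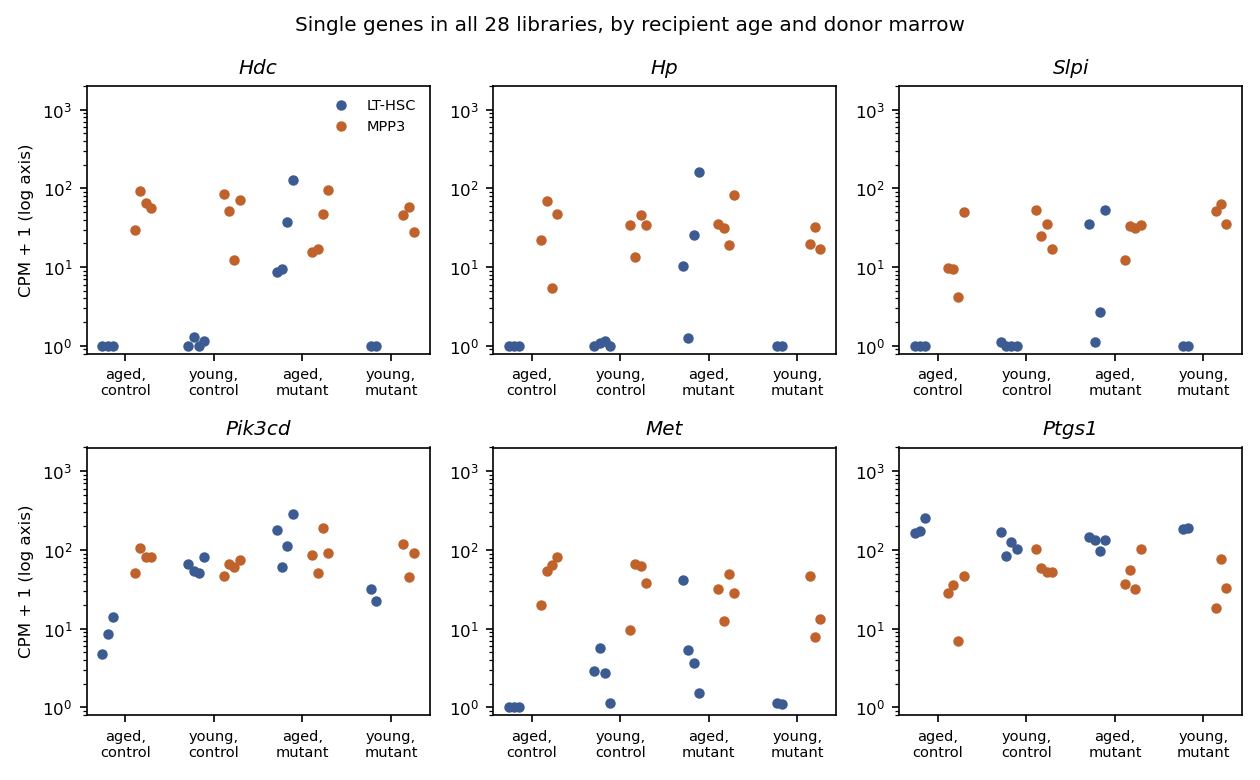
CPM + 1 on a log axis of 6 genes in all 28 libraries, with LT-HSC in blue and MPP3 in orange, by recipient age and donor marrow. Hdc, Hp and Slpi are at or near 0 in LT-HSC outside the aged mutant group, and Pik3cd in LT-HSC is lowest with control marrow in aged recipients.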

How the data were processed

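The authors deposited a table of gene counts for all 28 libraries of polyadenylated RNA. The values are whole numbers, not normalized. Per the submitters' processing notes, which list tools without order, the series used Bowtie2 2.2.0, RSEM 1.2.12, SAMtools 0.1.18, edgeR 3.5.3 and the build GRCm38. RSEM estimates counts, so the deposited counts may be rounded estimates, and the strand setting is not given in the sources used here. No column of the table belonged to no sample (0).

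Of 38924 genes, 37607 matched a symbol in GENCODE M21. Genes were kept by filterByExpr, scaled by TMM and tested with edgeR 4.0.16 (R 4.3.3), with glmQLFit (robust) and glmQLFTest, over all 28 libraries in 8 groups. The p-values are 2-sided and Benjamini-Hochberg adjusted over 16309 genes, with a threshold of 0.05. The SE is the log2 change over the square root of the F statistic. The floor for genes without reads is 3 counts over the group, and counting intervals are exact, at 95%. The 2 pools of 14 libraries were inferred from the column names. Replicates named different recipients. Whether donors were separate was not given, so p-values measure the spread between these libraries. LT-HSC and MPP3 libraries that name the same recipients were paired in the block fit. Their deviations correlated at -0.026 to 0.026 over 4 pairs, and at -0.018 to 0.019 over the 8 other pairs.

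The rule for named genes was: the sorting, TNF and Dnmt3a genes always, the 12 higher and 12 lower called genes with the smallest adjusted p without overlap, up to 4 genes a list by p, and the leading genes of each interaction. Mpo, Elane, Ctsg, Prtn3, Slpi, Cyp26b1, Tbxas1, Cmah, Fcgr2b, Adgrg1, Med1, Tmem165, Ptprs and Pura, and the markers Epx, Prg3, Sdc1 and Tnfrsf17, were chosen after their values were seen. The comparison and the lists were chosen with earlier results of these data known. A few genes are not reported here. Promoter windows came from RefSeq (GRCm38.p6). The test was tried on simulated data with 50 genes changed at each of 4 sizes. It called 0 of 50 at a true log2 change of 1, 2 at 2, 23 at 4 and 26 at 6, with 1 false call. A gene not called may thus still differ. DESeq2 1.42.0, limma 3.58.1 and other filters, scalings and subsets of libraries were alternatives.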

Additional observations from a re-analysis of the deposited data

Results flagged for a closer look

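The 70 called genes, 50 other genes and 6 library measures were checked for a single MPP3 library far from the other 3, by Dixon's ratio of the gap to the nearest value over the whole range, against its 95% critical value for 4 libraries. In Cyp26b1 the other 3 were at 0, which fixes the ratio at 1, so this gene is given as a value only. Of the other 125 items, 10 met this, and the library apart was the highest in all of them but Cdk6. The critical value gives a rate of 1 in 20 for independent normal values. CPM of genes in the same libraries need not be such values, so the 10 are not set against chance. MPP3 replicate 2 was apart in Cmah, at 778 CPM against 479 to 499 CPM in the others, in Tmem165, at 286 CPM against 31.8 to 48.7 CPM, and in Myb, at 918 CPM against 606 to 649 CPM. MPP3 replicate 4 was apart in Alas1, at 166 CPM against 80.8 to 93.6 CPM, in Slpi, at 49.5 CPM against 3.21 to 8.73 CPM, in Retnlg, at 5.90 CPM against 0.442 to 1.15 CPM, and in Cyp26b1, at 0.30 CPM where the others had 0. MPP3 replicate 1 was apart in Ly6a, at 98.1 CPM against 2.55 to 14.6 CPM, and in Igkc, at 2603 CPM against 501 to 721 CPM. MPP3 replicate 3 was apart in Mmrn1, at 40.5 CPM against 4.00 to 6.05 CPM, and in Cdk6, at 558 CPM against 736 to 753 CPM, where it lay below them. The change of Hdc differed between control and mutant marrow in aged recipients, with an interaction of 11.89 on the log2 scale as fitted, a value that depends on the prior count because control LT-HSC libraries held 0 reads.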

How the results depend on the processing

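Between MPP3 and LT-HSC, 70 genes were called, and the count stayed within 1.5 times of that under 7 other settings and 1 chosen after seeing the data, from 49 with only the 7 libraries compared to 76 without mitochondrial genes and Gm42418. It was 52 with the replicate block of recipients, with 40 of the 70 kept. It was 110 (55 higher, 55 lower) with a mean of at least 50 counts, 993 with DESeq2 (65.9% higher, against 51.4%), 390 with limma voom (70% higher), 179 with only the 15 control libraries (61.5% higher), 0 within pool 1 and, chosen after seeing the data, 172 without aged mutant LT-HSC libraries 1 and 4 (66.3% higher). Leaving out 1 library gave 30 to 81. The age interaction had 0 calls, but 296 with DESeq2, 3 with limma voom and 1 with only the control libraries. The genotype interaction had 1 call, but 414 with DESeq2, 6 with limma voom, 0 within pool 1, 0 within pool 2 and 0 to 4 with 1 library left out. The cause of these differences was not tested. The log2 difference of Tnfrsf1a, -0.75, turned to 0.56 with limma voom, 0.77 with the replicate block, 1.85 within pool 1 and 1.88 without LT-HSC replicate 3 (range with 1 library left out -1.29 to 1.88). That of Tnfrsf1b, 0.52, turned to -1.27 within pool 1 and -0.0541 without MPP3 replicate 3 (range -0.0541 to 1.66). That of Ly6a, -0.04, turned to 0.16 with pool as covariate, 1.14 within pool 2, 2.85 without LT-HSC replicate 2, and 0.32, 0.31 and 0.16 without MPP3 replicate 2, 3 or 4 (range -2.21 to 2.85). Ptprs, called lower at -4.31 on 5016 CPM in LT-HSC replicate 1 against 26.1 and 148 CPM in the others, turned to 1.74 within pool 1 and was -0.02 without LT-HSC replicate 1, -1.08 with the replicate block and -1.61 with limma voom (adjusted p 1, 0.77 and 0.495). The lower depth of LT-HSC sets the floor for genes without reads at 0.169 CPM there and 0.0828 CPM in MPP3.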

Other observations

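Some called genes were not described above. Among those that rose, Cmah, which makes N-glycolylneuraminic acid, had 198, 191 and 230 CPM in LT-HSC and 499, 778, 486 and 479 CPM in MPP3 (log2 1.44, SE 0.27, adjusted p = 0.011, edgeR). With St8sia4 higher and St3gal1 lower, 3 enzymes of sialic acid synthesis or transfer were among the 70, a grouping made after the values were seen. Cmah lost its call without LT-HSC replicate 2 or MPP3 replicate 2 (adjusted p 0.059 and 0.063). Fcgr2b, the inhibitory antibody receptor, had 0 CPM in all LT-HSC libraries and 17.8, 16.7, 6.80 and 26.9 CPM in MPP3, at least 105-fold more (adjusted p = 0.019). It had an adjusted p of 0.063 with the block, and its call was lost without any 1 of the LT-HSC libraries or without MPP3 replicate 4 (0.052 to 0.076).

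Among those that fell, Adgrg1, the adhesion receptor GPR56, had 1888, 3018 and 1047 CPM in LT-HSC and 1032, 451, 525 and 408 CPM in MPP3 (log2 -1.72, SE 0.39, adjusted p = 0.041, edgeR). Its groups were apart by a narrow margin, between LT-HSC replicate 3 and MPP3 replicate 1, and its call was kept without LT-HSC replicate 3 or MPP3 replicate 1 and lost without any 1 of the other 5 libraries (adjusted p 0.059 to 0.193). Med1, a Mediator subunit, was called at 262, 1832 and 209 CPM against 129, 161, 145 and 181 CPM. Without LT-HSC replicate 2, which holds the high value, its adjusted p went from 0.023 to 0.488, and with limma voom it was 0.0673. The call was also lost without any 1 of the MPP3 libraries, and the adjusted p with recipients as a block was 0.145.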
